A study of Rattus norvegicus with 12 samples.

Results

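The genes described here are those of 7 amino acid transporter families, Slc1, Slc3, Slc6, Slc7, Slc36, Slc38 and Slc43. The families were chosen with earlier results of these data known. Within them, genes were taken by symbol alone, as every gene of the array annotation whose symbol begins with one of these family names, the letter a and a number. The rule found 55 of 14497 named genes, each with 1 probe, and all 55 matched a current gene by Entrez identifier. One of them, Slc7a6os, is named for lying on the opposite strand of Slc7a6 and is not a transporter. Fetal livers of Sprague Dawley rats were taken on day 19 of gestation, and 12 Affymetrix arrays of the Rat Gene 1.0 ST type held their RNA in 4 groups of 3. These were polysome RNA and total RNA after a fast of the dam that began on day 17 and lasted 48 hr, which serves as a model of growth restriction, and polysome RNA and total RNA from dams fed freely. The labels call the arrays biological replicates and name 3 dams per diet, without saying how many fetuses each array stands for. Polysome RNA, from messages that carry several ribosomes, was drawn from pooled polysome preparations by acid phenol, whereas total RNA was isolated with guanidine and cesium chloride, so that polysome loading and method of isolation cannot be told apart in any comparison of the 2 fractions.

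Amino acid transporters move amino acids across the plasma membrane and out of lysosomes. The Slc38 and Slc1 carriers and most Slc6 carriers couple uptake to the sodium gradient, Slc36 carriers to protons, and Slc43 carriers work without a gradient of their own. Many Slc7 proteins are light chains that reach the surface only with an Slc3 heavy chain and exchange one amino acid for another, while the cationic Slc7 carriers work alone. In liver these proteins supply amino acids for the making of serum proteins, glucose and urea, and several of their genes are known targets of ATF4, the transcription factor switched on when amino acids run short.

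Values are RMA intensities on the log2(intensity + 1) scale, where each unit stands for a doubling. Array medians ran from 101.3 to 108.3 on the linear scale, and arrays of one fraction correlated at 0.991 to 0.996 within a group. Fed polysome array 1 and fasted polysome array 2 were known to stand apart from the other arrays of their groups, so several results, though not all, are also given without them. All 9 hepatocyte markers passed the filter on dim probes, as did all 6 erythroid, 7 macrophage and 5 endothelial markers that could be named, so the livers hold several cell types, and in such bulk RNA fewer cells of a type and less RNA per cell cannot be told apart. Genes were tested where their mean over the 12 arrays reached 6.07 log2, the 40th percentile of all probes, which left 36 of the 55 transporter-family genes among 10174 tested genes. Differences carry the standard error (SE) of a limma fit to all 12 arrays, n = 3 arrays per group throughout, and p-values were adjusted by Benjamini-Hochberg over all tested genes with a threshold of 0.05.

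Of the 36 tested genes, 31 lay at or above the filter level on every array. The 7 with a mean of at least 11 log2 were Slc38a3, Slc7a5, Slc3a2, Slc43a1, Slc43a3, Slc6a9 and Slc7a2. The 19 untested genes had means between 3.64 and 5.99 log2, and 16 of them were under the filter level on all arrays. They included Slc3a1, the heavy chain of the renal cystine carrier, the nervous system carriers Slc6a3, Slc6a5, Slc6a11 and Slc6a17, and Slc6a19 and Slc6a18, neutral amino acid carriers of gut and kidney. The others were Slc1a1, Slc1a6, Slc1a7, Slc6a2, Slc6a7, Slc6a14, Slc6a15, Slc7a3, Slc7a12, Slc7a13 and Slc36a3, as well as Slc1a2. The nearest on either side of the filter were Slc7a9 at 6.24 and Slc6a2 at 5.99 log2. Slc1a2, a glutamate carrier that adult liver keeps near the central vein, measured 6.51, 6.56 and 6.05 in total RNA after fasting, against 5.78, 5.72 and 6.002 in total RNA of fed dams, and 5.57, 5.91 and 5.84 against 5.59, 5.68 and 5.95 on polysomes. Its 12-array mean of 5.93 kept it from being tested; after fasting, 2 of its 3 total arrays lay above the filter level, whereas all of its other arrays lay under it.

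**Figure D1:**
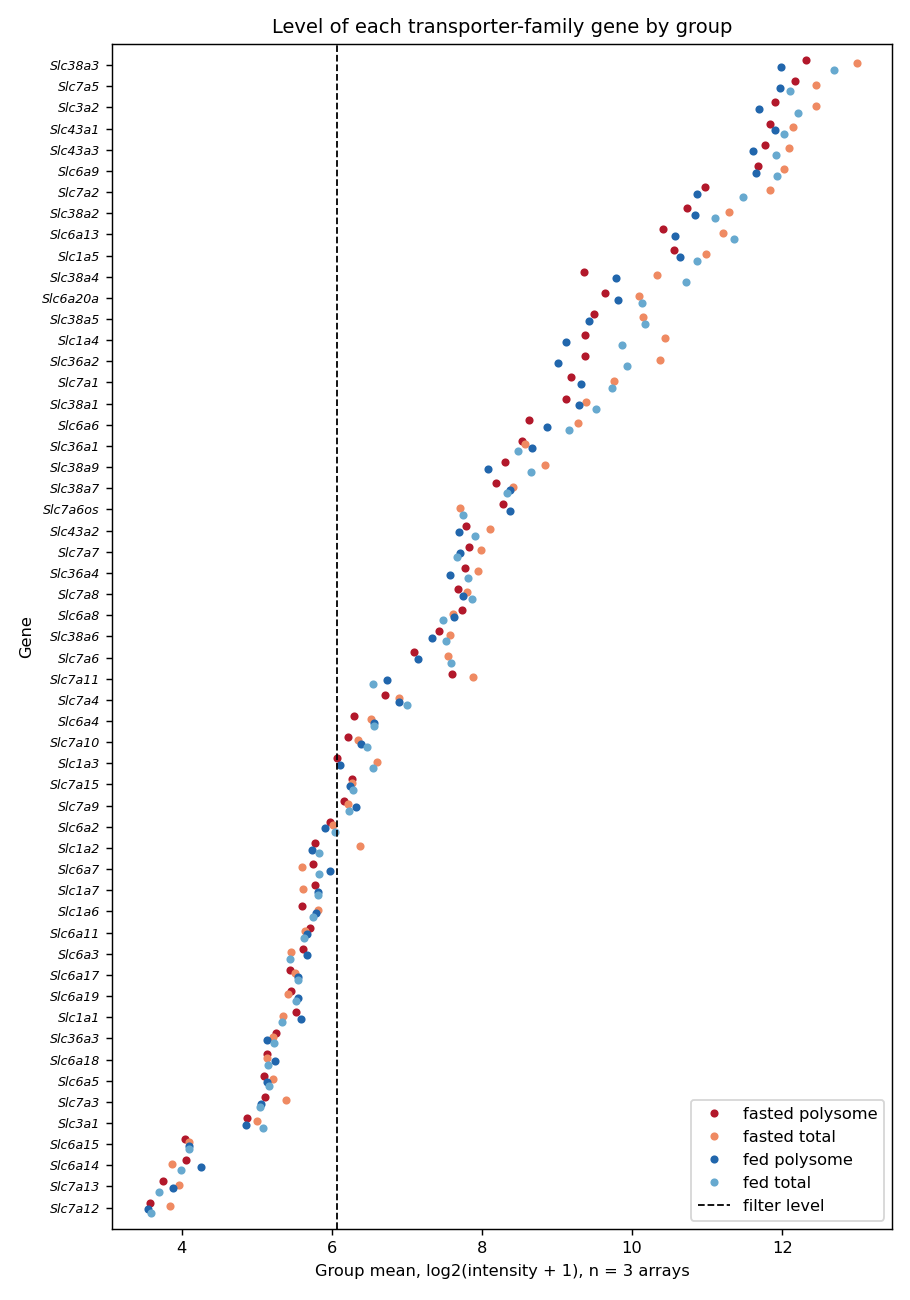
Mean log2(intensity + 1) of all 55 genes on the x axis, with a row for each gene and a colour for each of the 4 groups (n = 3 arrays). The dashed line is the filter level of 6.07, and 19 genes have 12-array means to its left; rows are sorted by mean signal, which differs between probes for reasons other than abundance.

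Where transporter genes differed between fractions, nearly all had lower signal in polysome RNA than in total RNA. After fasting, 24 of the 36 tested genes were lower on polysomes and 1 was higher, a share called of 69.4% beside 43.7% over all 10174 tested genes. In fed dams 18 were lower and 2 were higher, or 55.6% beside 43.5% over all tested genes. By direction, 18.2% of all tested genes were lower and 25.5% higher on polysomes after fasting, and 19.4% were lower and 24.1% higher in fed dams. The median difference of the 36 was -0.32 log2 in fasted and -0.23 log2 in fed dams, beside 0.05 and 0.04 log2 over all tested genes. The largest drops after fasting were those of Slc1a4, a carrier of alanine, serine and cysteine, at 2.09-fold, and of Slc36a2, a proton-coupled carrier of glycine and proline, at 2.01-fold. The gene that was higher in both diets was Slc7a6os, which is no transporter; without it, 24 of 35 genes were lower and 0 higher after fasting in the limma fit.

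The differences between fractions in fasted and in fed dams were taken from separate arrays. Their errors came from the same fit to all arrays, so the calls in fasted and fed dams are not independent. Both comparisons also share the difference in isolation method between the fractions. Of the genes lower on polysomes, 17 were so in both diets, which is 70.8% of those after fasting and 94.4% of those in fed dams. Among all tested genes, 1493, or 14.7%, were lower in both diets, against 47.2% of the 36. In 14 of the 17, the polysome arrays did not overlap the total arrays in either diet. The 17 were chosen on these same arrays, so this count adds no further support. The share of all tested genes without overlap in both diets was not taken. After fasting, all polysome arrays lay under all total arrays for 25 of the 36 genes, against 21.5% of all tested genes, and above them for 1, against 31.1%. In fed dams they lay under them for 17, against 23.5%, and above them for 2, against 29.4%. Groups without overlap made up 52.6% and 52.9% of all tested genes in fasted and fed dams. Of the 18 genes with means above 8.77 log2, all 18 were lower after fasting and 13 in fed dams, against 6 and 5 of the 18 dimmer genes. All tested genes above that level were lower in 21.4% of cases after fasting and 23.1% in fed dams, and those under it in 14.7% and 15.3%.

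Other solute carriers were set beside these genes after the values had been seen. Of 147 tested genes of other Slc families outside Slc25, 83 were lower and 3 higher on polysomes after fasting, and 59 were lower and 5 higher in fed dams. Their median differences were -0.30 and -0.16 log2. The Slc25 family, whose carriers sit in the inner mitochondrial membrane, had 0 of 32 genes lower and 8 higher after fasting in the limma fit, and 3 lower and 10 higher in fed dams, with medians of 0.08 and 0.09 log2. The share of lower genes was thus 66.7% and 50% for the amino acid transporter families, 56.5% and 40.1% for the other Slc genes and 0% and 9.38% for Slc25, in fasted and fed dams in turn. The differences between these shares were not tested.

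**Figure D2:**
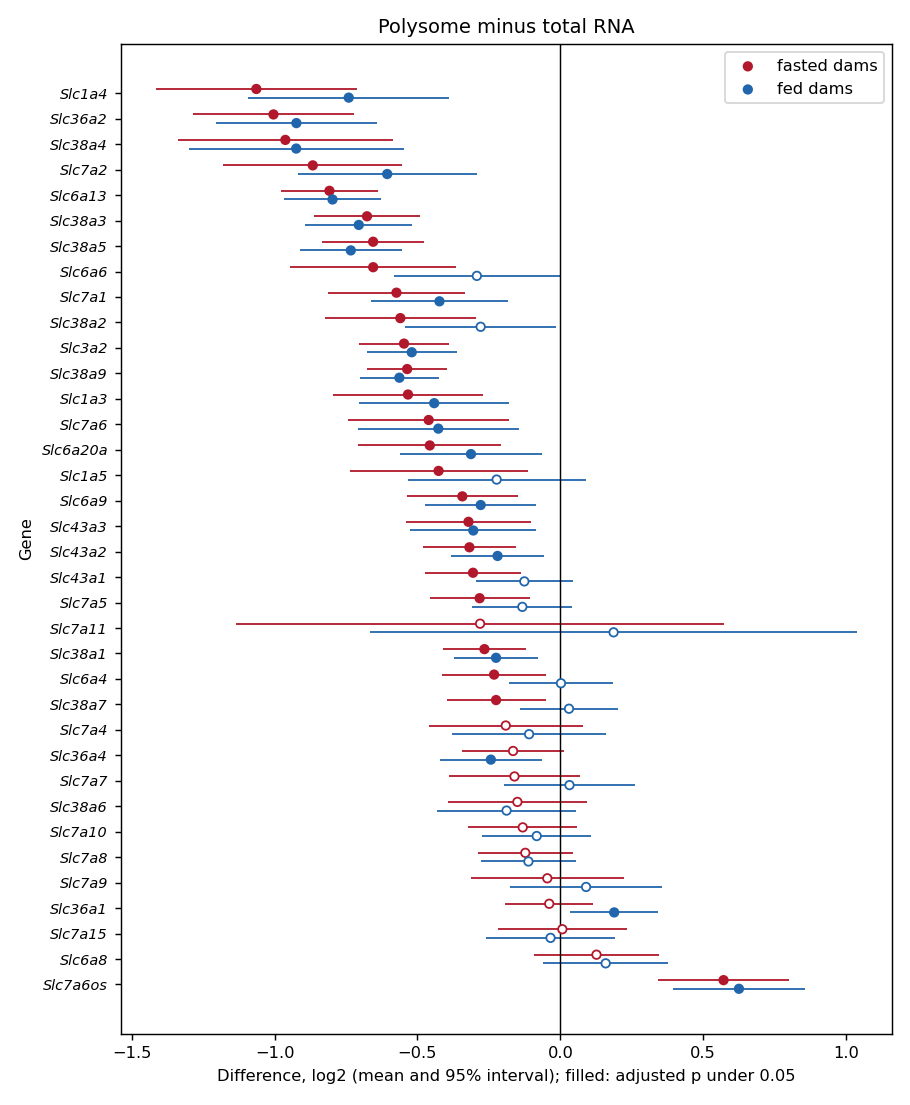
Polysome minus total RNA (x axis, log2, with 95% intervals) for the 36 tested genes, in fasted dams (red, upper) and fed dams (blue, lower); filled points passed the limma threshold. Most filled points lie left of 0, from -1.06 for Slc1a4 after fasting, and Slc7a6os lies to the right in both diets at 0.57 and 0.63.

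The Slc38 carriers take up small neutral amino acids and glutamine. All 8 were tested, and 7 were lower on polysomes after fasting and 5 in fed dams. Slc38a3, the glutamine and histidine carrier of system N, measured 12.39, 12.38 and 12.19 on polysomes after fasting, against 13.01, 13.08 and 12.89 in total RNA. In fed dams it measured 12.12, 11.86 and 11.98 on polysomes, against 12.73, 12.66 and 12.69 in total RNA. Every polysome array was under every total array of its diet, a difference of -0.68 ± 0.086 log2 after fasting (limma adjusted p = 4.52e-05) and -0.71 ± 0.086 in fed dams (limma adjusted p = 3.72e-05). Slc38a4, the imprinted system A carrier of liver, measured 9.62, 8.98 and 9.50 on fasted polysomes, against 10.20, 10.12 and 10.66 in fasted total RNA. For Slc38a4 in fed livers, polysome arrays gave 10.001, 9.84 and 9.53 and total arrays 10.62, 10.73 and 10.80. It was among the strongest drops, 1.95-fold after fasting (limma adjusted p = 6.50e-04) and 1.90-fold in fed dams (limma adjusted p = 8.85e-04), again without overlap. Over the alternatives run, its difference after fasting ranged from -1.09 to -0.77 log2 and passed in each. Slc38a5, another system N carrier, measured 9.52, 9.45 and 9.51 on fasted polysomes, against 10.02, 10.23 and 10.19 in fasted total RNA. Its fed values were 9.42, 9.37 and 9.50 on polysomes, against 10.25, 10.02 and 10.23 in total RNA. These stood apart by -0.66 ± 0.083 and -0.73 ± 0.083 log2 (limma adjusted p = 4.24e-05 and 1.93e-05), with SDs of 0.04 to 0.13 log2 within a group.

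Slc38a9, the lysosomal carrier that reports arginine to the growth kinase mTORC1, measured 8.28, 8.37 and 8.25 on polysomes after fasting, against 8.86, 8.88 and 8.77 in total RNA. Fed livers gave 8.07, 8.13 and 8.06 on polysomes, against 8.64, 8.63 and 8.67 in total RNA. On polysomes it was lower, 1.45-fold after fasting and 1.48-fold in fed dams (limma adjusted p = 2.88e-05 and 2.21e-05). Slc38a1, a system A carrier, measured 9.10, 9.17 and 9.10 on fasted polysomes, against 9.40, 9.43 and 9.34 in fasted total RNA. For Slc38a1 in fed livers, polysome arrays gave 9.22, 9.38 and 9.27 and total arrays 9.51, 9.56 and 9.48. The gap was small but free of overlap, -0.27 ± 0.068 and -0.23 ± 0.068 log2 (limma adjusted p = 0.00619 and 0.0159). Slc38a2, the system A carrier that cells raise when starved of amino acids, measured 10.69, 10.86 and 10.66 on fasted polysomes, against 11.37, 11.19 and 11.33 in fasted total RNA. In fed livers, where array 3 was the highest of both fractions, it measured 10.65, 10.76 and 11.08 on polysomes, against 10.996, 10.98 and 11.35 in total RNA. It was lower on polysomes after fasting (-0.56 ± 0.12 log2, limma adjusted p = 0.00238) and did not pass in fed dams (-0.28 ± 0.12, 95% interval -0.54 to -0.01, limma adjusted p = 0.0823); with each liver as a fixed block the fed adjusted p was 0.0187. Slc38a7, a glutamine exporter of lysosomes, measured 8.23, 8.30 and 8.05 on fasted polysomes, against 8.43, 8.51 and 8.32 in fasted total RNA. For Slc38a7 in fed livers, polysome arrays gave 8.40, 8.40 and 8.31 and total arrays 8.39, 8.34 and 8.30. It passed after fasting (-0.22 ± 0.08 log2, limma adjusted p = 0.0364) but not in fed dams, where the fractions overlapped (0.03 ± 0.08 log2, limma adjusted p = 0.79). Slc38a6 passed in neither diet (-0.15 ± 0.11 and -0.19 ± 0.11 log2).

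Slc3a2 is the heavy chain that carries most Slc7 light chains to the plasma membrane. It measured 11.96, 11.96 and 11.80 on polysomes after fasting, against 12.55, 12.46 and 12.36 in total RNA. For Slc3a2 in fed livers, polysome arrays gave 11.72, 11.64 and 11.71 and total arrays 12.22, 12.21 and 12.21. Neither diet showed overlap, and the heavy chain was 1.46-fold lower on polysomes after fasting and 1.43-fold lower in fed dams (limma adjusted p = 6.51e-05 and 1.01e-04). Of the 10 genes of light chains and their relatives, 8 were tested, and 2 were lower on polysomes after fasting and 1 in fed dams. Slc7a5, the large neutral amino acid exchanger, measured 12.28, 12.21 and 12.01 on fasted polysomes, against 12.49, 12.50 and 12.35 in fasted total RNA. Fed values were 12.05, 11.95 and 11.92 on polysomes, against 12.08, 12.11 and 12.13 in total RNA. Although its arrays did not overlap in either diet, the gap between fractions was small, -0.28 ± 0.081 log2 after fasting (limma adjusted p = 0.0126) and -0.13 ± 0.081 in fed dams (limma adjusted p = 0.207). Slc7a6, which exchanges cationic for neutral amino acids, measured 7.14, 7.17 and 6.97 on fasted polysomes, against 7.59, 7.48 and 7.58 in fasted total RNA. For Slc7a6 in fed livers, polysome arrays gave 7.18, 7.30 and 6.98 and total arrays 7.77, 7.74 and 7.23. It was lower on polysomes in both diets (-0.46 ± 0.13 and -0.43 ± 0.13 log2, limma adjusted p = 0.0114 and 0.0173), with overlap in fed dams through total array 3. The gene on its opposite strand, Slc7a6os, measured 8.30, 8.26 and 8.27 on fasted polysomes, against 7.77, 7.55 and 7.79 in fasted total RNA. For Slc7a6os in fed livers, polysome arrays gave 8.11, 8.42 and 8.59 and total arrays 7.72, 7.81 and 7.71. Its sign was opposite to that of Slc7a6, 1.49-fold and 1.54-fold higher on polysomes (limma adjusted p = 8.01e-04 and 4.33e-04), and whether the 2 probes keep the strands apart was not tested. The other tested light chains and relatives, Slc7a7, Slc7a8, Slc7a9, Slc7a10, Slc7a11 and Slc7a15, passed in neither diet, with differences from -0.28 to 0.01 log2 after fasting and from -0.11 to 0.19 in fed dams.

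**Figure D3:**
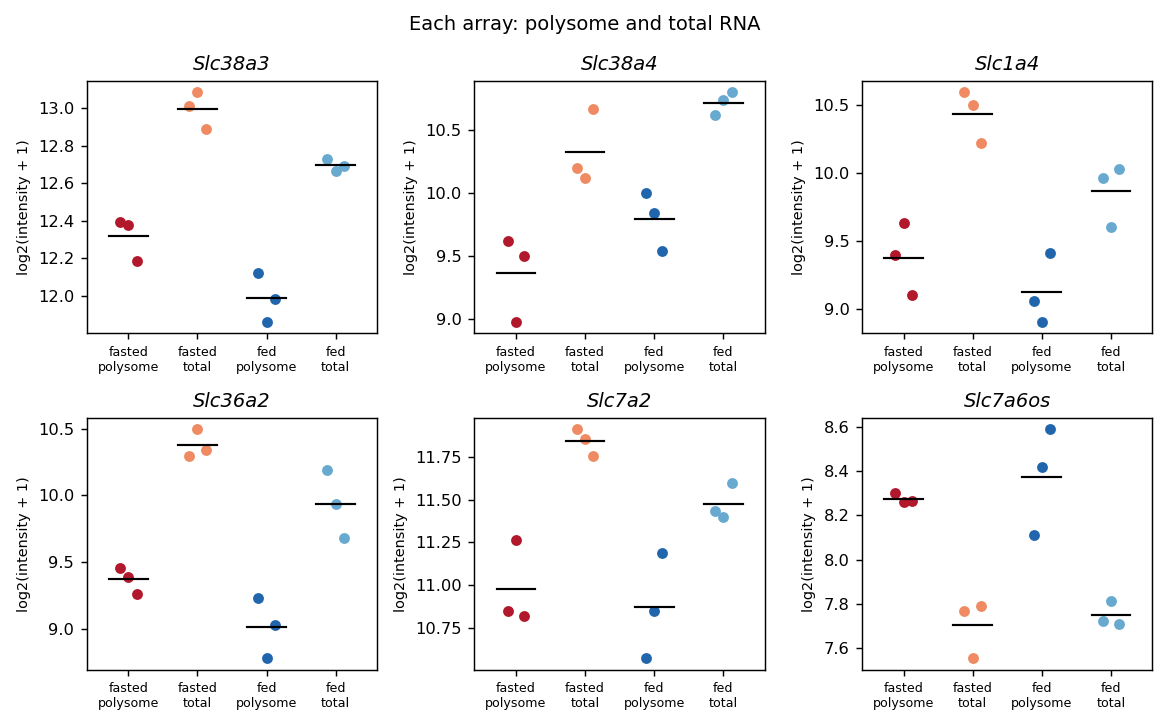
Log2(intensity + 1) on each of the 12 arrays (points) with group means (bars) for 6 genes, in fasted polysome, fasted total, fed polysome and fed total RNA from left to right; each panel has its own y axis. In the first 5 panels all polysome points of a diet lie under its total points, and in the Slc7a6os panel all lie above them.

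The cationic carriers bring in arginine, lysine and ornithine. Slc7a2, the form of adult liver, measured 10.85, 11.27 and 10.82 on polysomes after fasting, against 11.91, 11.86 and 11.76 in total RNA. For Slc7a2 in fed livers, polysome arrays gave 10.57, 10.85 and 11.19 and total arrays 11.43, 11.40 and 11.59. This was 1.82-fold lower on polysomes after fasting and 1.52-fold lower in fed dams (limma adjusted p = 3.72e-04 and 0.00443). Slc7a1, the widely expressed form, measured 9.07, 9.45 and 9.04 on fasted polysomes, against 9.76, 9.91 and 9.61 in fasted total RNA. For Slc7a1 in fed livers, polysome arrays gave 9.24, 9.27 and 9.43 and total arrays 9.69, 9.76 and 9.77. It was lower as well, by -0.57 ± 0.11 and -0.42 ± 0.11 log2 (limma adjusted p = 9.76e-04 and 0.00734), and neither gene had overlapping fractions. Slc7a4 passed in neither diet (-0.19 ± 0.13 and -0.11 ± 0.13 log2).

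Of the 7 Slc1 carriers, 3 were tested, and all 3 were lower on polysomes after fasting and 2 in fed dams. Slc1a4 measured 9.40, 9.63 and 9.10 on fasted polysomes, against 10.60, 10.50 and 10.22 in fasted total RNA. For Slc1a4 in fed livers, polysome arrays gave 9.06, 8.90 and 9.41 and total arrays 9.96, 9.60 and 10.03. Its drop after fasting was the largest of the 36 genes, -1.06 ± 0.16 log2 (limma adjusted p = 1.87e-04), and it was also lower in fed dams, -0.74 ± 0.16 log2 (limma adjusted p = 0.00252). Slc1a5, the glutamine exchanger of growing cells, measured 10.57, 10.76 and 10.35 on fasted polysomes, against 11.11, 11.17 and 10.67 in fasted total RNA. For Slc1a5 in fed livers, polysome arrays gave 10.81, 10.54 and 10.58 and total arrays 11.08, 10.76 and 10.76. The fractions overlapped in both diets, and it passed after fasting (-0.43 ± 0.14 log2, limma adjusted p = 0.029) but not in fed dams (-0.22 ± 0.14, limma adjusted p = 0.234, or 0.0267 with each liver as a fixed block). Slc1a3, a glutamate carrier, lay near the filter level, at 6.06, 5.93 and 6.20 on fasted polysomes, against 6.53, 6.76 and 6.51 in fasted total RNA. For Slc1a3 in fed livers, polysome arrays gave 6.31, 6.08 and 5.94 and total arrays 6.78, 6.45 and 6.42. It was lower on polysomes in both diets (limma adjusted p = 0.00321 and 0.0101), without overlap, and no fold is given because its fasted polysome mean lay just under that level.

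Slc36a2 measured 9.46, 9.39 and 9.26 on fasted polysomes, against 10.29, 10.50 and 10.34 in fasted total RNA. For Slc36a2 in fed livers, polysome arrays gave 9.23, 8.78 and 9.03 and total arrays 10.19, 9.94 and 9.68. This proton-coupled carrier was lower by -1.004 ± 0.13 log2 after fasting and -0.92 ± 0.13 in fed dams (limma adjusted p = 5.21e-05 and 1.05e-04). Slc36a4, a relative that carries proline and tryptophan, measured 7.90, 7.63 and 7.81 on fasted polysomes, against 7.92, 7.90 and 8.01 in fasted total RNA. For Slc36a4 in fed livers, polysome arrays gave 7.50, 7.58 and 7.63 and total arrays 7.72, 7.90 and 7.82. It passed in fed dams (-0.24 ± 0.083 log2, limma adjusted p = 0.0294) and not after fasting (-0.17 ± 0.083, limma adjusted p = 0.125), with fractions that stood apart in both diets, though only before rounding after fasting. Slc36a1, a lysosomal and intestinal carrier, measured 8.58, 8.47 and 8.55 on fasted polysomes, against 8.60, 8.58 and 8.53 in fasted total RNA. For Slc36a1 in fed livers, polysome arrays gave 8.75, 8.63 and 8.61 and total arrays 8.38, 8.49 and 8.55. It was higher on polysomes of fed dams (0.19 ± 0.071 log2, limma adjusted p = 0.0473, or 0.0708 with each liver as a fixed block), and after fasting it measured -0.04 ± 0.071 log2 (limma adjusted p = 0.698).

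The Slc43 family holds the branched-chain carriers Slc43a1 and Slc43a2 and Slc43a3, a carrier of purine bases. Slc43a1 measured 11.94, 11.79 and 11.78 on fasted polysomes, against 12.12, 12.14 and 12.17 in fasted total RNA. For Slc43a1 in fed livers, polysome arrays gave 11.99, 11.91 and 11.80 and total arrays 12.13, 12.002 and 11.94. It was lower after fasting without overlap (-0.31 ± 0.078 log2, limma adjusted p = 0.00642) and did not pass in fed dams, where the fractions overlapped (-0.13 ± 0.078, limma adjusted p = 0.214). Slc43a2 measured 7.81, 7.68 and 7.87 on fasted polysomes, against 8.19, 8.07 and 8.05 in fasted total RNA. For Slc43a2 in fed livers, polysome arrays gave 7.70, 7.74 and 7.63 and total arrays 7.99, 7.86 and 7.89. For Slc43a2 the fractions stood apart in both diets. Slc43a3 measured 11.77, 11.85 and 11.70 on fasted polysomes, against 12.06, 12.16 and 12.06 in fasted total RNA. For Slc43a3 in fed livers, polysome arrays gave 11.87, 11.56 and 11.40 and total arrays 11.996, 11.88 and 11.87. Both were lower on polysomes in both diets, by -0.32 ± 0.075 and -0.22 ± 0.075 log2 for Slc43a2 (limma adjusted p = 0.00396 and 0.0305) and by -0.32 ± 0.1 and -0.30 ± 0.1 for Slc43a3 (limma adjusted p = 0.021 and 0.0274).

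Of the 16 Slc6 genes, 6 were tested. Slc6a13, a carrier of GABA and taurine in liver, measured 10.51, 10.40 and 10.31 on fasted polysomes, against 11.22, 11.23 and 11.21 in fasted total RNA. For Slc6a13 in fed livers, polysome arrays gave 10.67, 10.44 and 10.59 and total arrays 11.39, 11.30 and 11.40. It had the smallest adjusted p of the 36 genes in both diets, -0.81 ± 0.078 log2 after fasting (limma adjusted p = 5.86e-06) and -0.80 ± 0.078 in fed dams (limma adjusted p = 6.90e-06), with SDs of 0.01 to 0.12 log2 within a group. Slc6a6, the taurine carrier, measured 8.57, 8.67 and 8.65 on fasted polysomes, against 9.33, 9.26 and 9.26 in fasted total RNA. For Slc6a6 in fed livers, polysome arrays gave 8.51, 8.96 and 9.15 and total arrays 9.06, 9.06 and 9.38. It was lower after fasting (-0.66 ± 0.13 log2, limma adjusted p = 0.00157), and the wider fed values did not pass (-0.29 ± 0.13, limma adjusted p = 0.0973, or 0.022 with each liver as a fixed block). Slc6a9, the glycine carrier that serves haem synthesis in red cell precursors, measured 11.78, 11.58 and 11.67 on fasted polysomes, against 11.98, 12.01 and 12.07 in fasted total RNA. For Slc6a9 in fed livers, polysome arrays gave 11.86, 11.59 and 11.52 and total arrays 12.01, 11.87 and 11.92. The fractions of Slc6a9 stood apart in both diets. Slc6a20a, a proline carrier, measured 9.51, 9.66 and 9.74 on fasted polysomes, against 9.995, 9.995 and 10.29 in fasted total RNA. For Slc6a20a in fed livers, polysome arrays gave 9.98, 9.78 and 9.70 and total arrays 10.23, 10.25 and 9.92. Both were lower on polysomes in both diets, by -0.34 ± 0.091 and -0.28 ± 0.091 log2 for Slc6a9 (limma adjusted p = 0.00777 and 0.0237) and -0.46 ± 0.12 and -0.31 ± 0.12 for Slc6a20a (limma adjusted p = 0.00612 and 0.0432). Slc6a4, the serotonin carrier that platelets hold, measured 6.34, 6.38 and 6.16 on fasted polysomes, against 6.47, 6.53 and 6.58 in fasted total RNA. For Slc6a4 in fed livers, polysome arrays gave 6.68, 6.62 and 6.41 and total arrays 6.60, 6.56 and 6.54. It passed after fasting (-0.23 ± 0.084 log2, limma adjusted p = 0.0396) and not in fed dams, where the fractions overlapped (0.002 ± 0.084, limma adjusted p = 0.986). Slc6a8, the creatine carrier, had positive differences in both diets that did not pass (0.13 ± 0.1 and 0.16 ± 0.1 log2).

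Cell type markers were compared between the same fractions. Of 7 macrophage markers, 6 were lower on polysomes after fasting and 5 in fed dams; of 5 endothelial markers, 5 and 4; and of 6 stellate cell markers, 5 and 6, with 0 higher in each list and diet by limma. The summed stellate signal was 10.54 to 10.64 log2 on fasted polysomes, against 11.73 to 11.97 in fasted total RNA, and 10.25 to 10.53 on fed polysomes, against 11.49 to 11.85 in fed total RNA. Summed macrophage markers gave 11.76 to 11.78 on fasted polysomes, against 12.30 to 12.42 in fasted total RNA, and 11.48 to 11.57 on fed polysomes, against 12.10 to 12.15 in fed total RNA, and endothelial markers 11.64 to 11.77 against 12.35 to 12.38 and 11.53 to 11.61 against 12.15 to 12.23. Of 9 hepatocyte markers, 5 were lower after fasting and 4 in fed dams, with 0 higher by limma, and of 6 erythroid markers, 1 was lower and 1 higher after fasting, and 1 lower and 2 higher in fed dams. Hepatocyte sums were 16.46 to 16.47 on fasted polysomes, against 16.60 to 16.66 in fasted total RNA, and 16.41 to 16.52 on fed polysomes, against 16.61 to 16.66 in fed total RNA; erythroid sums were 15.44 to 15.44 against 15.45 to 15.49 and 15.45 to 15.49 against 15.43 to 15.51. Neutrophil markers, of which 2 of 6 were lower after fasting and 3 in fed dams, summed to 12.85 to 13.03 on fasted polysomes, against 13.28 to 13.44 in fasted total RNA, and 12.78 to 13.01 on fed polysomes, against 13.28 to 13.63 in fed total RNA. All markers of these 6 lists that could be named had means above the filter level. The part of the cell types in the transporter differences was not tested.

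Some of these calls rested on single arrays. Without fed total array 1, 13 of the 36 genes passed in fed dams in place of 20, and the range over the 12 fits that each left out 1 array was 13 to 19 in fed and 19 to 25 in fasted dams. Without fasted polysome array 3, the fasted-diet adjusted p by limma was 0.0686 for Slc7a5, 0.0504 for Slc7a6, 0.0778 for Slc43a3, 0.127 for Slc1a5, 0.169 for Slc38a7 and 0.172 for Slc6a4, and for the last 4 of these, leaving out any one of 3 to 7 arrays ended the call. In fed dams, limma adjusted p without fed total array 1 was 0.0522 for Slc1a3, 0.0802 for Slc7a6, 0.12 for Slc43a2 and 0.185 for Slc36a1. Without fed total array 2 the limma adjusted p was 0.0593 for Slc38a1, 0.108 for Slc36a4 and 0.143 for Slc6a20a, and without fed polysome array 3 it was 0.122 for Slc43a3 and 0.0977 for Slc6a9. The Slc36a1 call ended with any one of 10 arrays left out. Without fed polysome array 1 the limma adjusted p in fed dams was 0.0842 for Slc36a4 and 0.135 for Slc36a1. Without fasted polysome array 2 it was 0.0502 for Slc6a20a in fed dams. Lower on polysomes in every alternative that was run were 18 genes in fasted dams and 10 in fed dams, and those 10 were Slc1a4, Slc36a2, Slc38a3, Slc38a4, Slc38a5, Slc38a9, Slc3a2, Slc6a13, Slc7a1 and Slc7a2.

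Maternal fasting itself left no transporter gene past the threshold. On polysomes, 0 of the 36 passed in limma, while 2.01% of all tested genes passed, 1.59% higher and 0.423% lower. In total RNA, 0 of the 36 passed in limma, while 1.03% of all tested genes passed, 0.737% higher and 0.295% lower. In each fraction 11 of the 36 had an unadjusted limma p under 0.05. The share of all tested genes at that looser threshold was not taken, so the 11 have no background to be set against. In total RNA the values with the smallest p were positive and belonged to carriers of large neutral amino acids, cystine, alanine and glutamine: Slc7a5, Slc1a4, Slc38a3 and Slc7a11. The median over the 36 was 0.09 log2 in total RNA and -0.05 on polysomes, beside 0.000675 and 0.02 over all tested genes. The 95% interval lay within 1.5-fold either way for 32 of the 36 genes on polysomes and for 31 in total RNA. All fasted arrays lay above all fed arrays for 5 of the 36 genes on polysomes, against 12.4% of all tested genes, and under them for 4, against 8.38%, 20.8% of all genes being free of overlap. In total RNA they lay above for 11, against 12.9%, and under for 2, against 11.9%, with 24.7% of all genes free of overlap.

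Slc7a5 averaged 12.45 ± 0.08 log2 in total RNA after fasting and 12.11 ± 0.02 in fed dams (SD, n = 3 each), a difference of 0.34 ± 0.081 log2 (limma adjusted p = 0.0607). Its fasted total arrays lay above all fed ones; over 23 alternatives its adjusted p ran from 0.0315 to 0.217, and it passed at the lower end, with trend and robust priors. The heavy chain Slc3a2 averaged 12.46 ± 0.10 after fasting and 12.21 ± 0.01 in fed dams, again without overlap, a difference of 0.25 ± 0.073 log2 (limma adjusted p = 0.118). On polysomes, Slc7a5 differed by 0.19 ± 0.081 and Slc3a2 by 0.22 ± 0.073 log2 (limma adjusted p = 0.202 and 0.118). Slc7a11, the cystine and glutamate antiporter that pairs with the same heavy chain, measured 7.75, 8.30 and 7.59 in total RNA after fasting, against 5.96, 6.23 and 7.48 in fed total RNA, and 7.56, 8.28 and 6.95 on fasted polysomes, against 6.31, 6.59 and 7.33 on fed polysomes. Fed array 3 was the highest of its group in both fractions, fasted array 2 was the highest of its group in both, and fed total array 1 lay under the filter level. The total difference was the widest of the 36 genes in size and error, 1.33 ± 0.4 log2 with a 95% interval of 0.47 to 2.18 (limma adjusted p = 0.118, and 0.0526 to 0.32 over alternatives), and polysomes gave 0.86 ± 0.4 (limma adjusted p = 0.236).

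Slc1a4 averaged 10.44 ± 0.20 in total RNA after fasting and 9.86 ± 0.23 in fed dams, without overlap (0.58 ± 0.16 log2, limma adjusted p = 0.105, and 0.0832 to 0.297 over alternatives), and polysomes gave 0.25 ± 0.16 (limma adjusted p = 0.408). Slc38a3 had nearly equal differences in both fractions, 0.33 ± 0.086 log2 on polysomes (limma adjusted p = 0.0621) and 0.30 ± 0.086 in total RNA (limma adjusted p = 0.107). On polysomes it averaged 12.32 ± 0.11 after fasting and 11.99 ± 0.13 in fed dams, and it passed in 3 of 23 alternatives: without fed polysome array 1 (limma adjusted p = 0.0311), without that array and fasted polysome array 2 together (0.0311), and with trend and robust priors (0.0303). Slc6a6 was lower after fasting and past the threshold in the first 2 of these, and no further gene of the 36 was. Slc36a2 was above the fed arrays on all fasted arrays of both fractions (0.36 ± 0.13 log2 on polysomes, limma adjusted p = 0.144, and 0.44 ± 0.13 in total RNA, limma adjusted p = 0.118), and so was Slc38a9 (0.22 ± 0.065 and 0.19 ± 0.065 log2, limma adjusted p = 0.088 and 0.171). Slc6a4 lay under the fed arrays on all fasted polysome arrays (-0.27 ± 0.084 log2, limma adjusted p = 0.0974) and at -0.04 ± 0.084 in total RNA (limma adjusted p = 0.878). Slc38a4 had the lowest values of the 36, -0.43 ± 0.17 log2 on polysomes and -0.39 ± 0.17 in total RNA, with overlap in both fractions (limma adjusted p = 0.186 and 0.297). Its lowest polysome value, 8.98, came from fasted polysome array 2, and the fasting value without that array is not given. Slc38a2, whose gene responds to amino acid starvation in cultured cells, measured -0.10 ± 0.12 log2 on polysomes (95% interval -0.36 to 0.17) and 0.18 ± 0.12 in total RNA (95% interval -0.08 to 0.45), and neither passed (limma adjusted p = 0.702 and 0.505). The cationic carriers Slc7a2 and Slc7a1 measured 0.37 ± 0.15 and 0.02 ± 0.11 log2 in total RNA (limma adjusted p = 0.233 and 0.957).

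**Figure D4:**
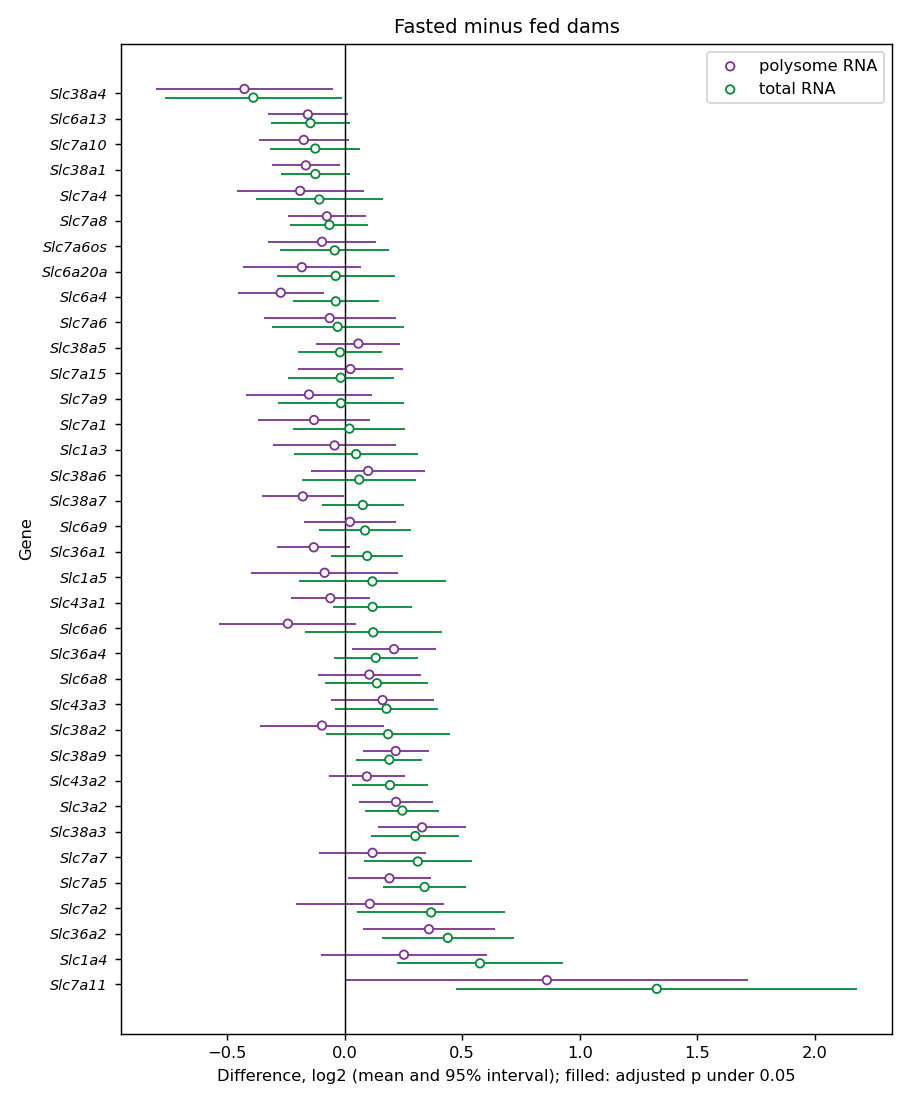
Fasted minus fed dams (x axis, log2, with 95% intervals) for the 36 tested genes, in polysome RNA (purple, upper) and total RNA (green, lower). All points are open because 0 of 36 genes passed the limma threshold in either fraction; Slc7a11 has the widest intervals, 0.47 to 2.18 in total RNA.

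**Figure D5:**
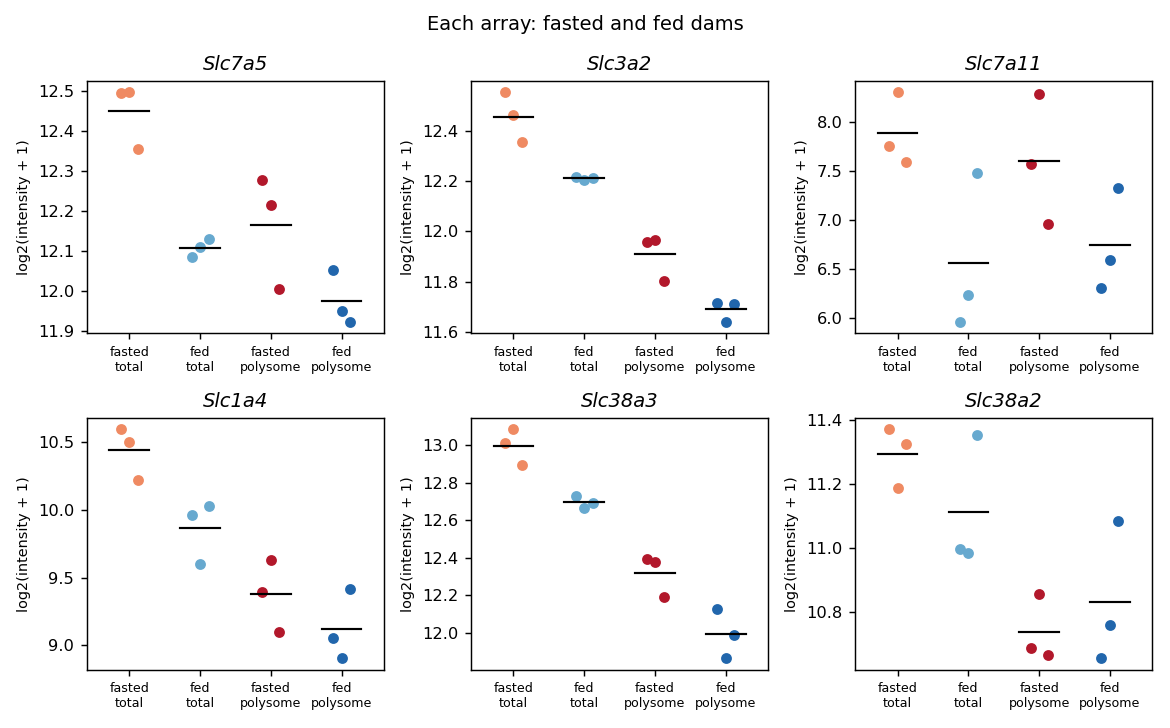
Log2(intensity + 1) on each array (points) with group means (bars) for 6 genes, in fasted total, fed total, fasted polysome and fed polysome RNA from left to right; each panel has its own y axis. Fasted total arrays lie above all fed total arrays for Slc7a5, Slc3a2, Slc7a11, Slc1a4 and Slc38a3, and overlap them for Slc38a2.

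The fed total arrays also carried signal of pancreatic enzyme genes: Cpa1 measured 7.07, 7.21 and 6.72 in fasted total RNA, against 10.10, 7.87 and 8.98 in fed total RNA (-1.98 ± 0.43 log2, limma adjusted p = 0.0486). Of 8 exocrine pancreas markers, 5 had means above the filter level and Amy2a3, Pnlip and Prss1 did not, and their summed signal was 9.64 to 9.67 log2 in fasted total RNA, 9.74 to 11.82 in fed total RNA, 9.61 to 9.85 on fasted polysomes and 9.35 to 10.03 on fed polysomes. Macrophage and endothelial sums were higher on all fasted than on all fed arrays of the same fraction, and stellate sums overlapped in total RNA and stood just apart on polysomes. Of 6 megakaryocyte and platelet markers, only 3 could be named. Their sums were 11.14 to 11.44 log2 on fasted polysomes, against 11.61 to 11.69 on fed polysomes. None of these markers passed for fasting on polysomes (smallest limma adjusted p = 0.0879). Single markers that passed for fasting were Pecam1, of endothelial cells, in total RNA (0.43 ± 0.089 log2, limma adjusted p = 0.0428), and on polysomes Cd68, of macrophages (0.41 ± 0.081, limma adjusted p = 0.0263), and the stellate genes Dcn (0.74 ± 0.14, limma adjusted p = 0.024) and Lrat (0.34 ± 0.079, limma adjusted p = 0.0439). The part of these cell markers in the fasting values was not tested. The part of the pancreatic signal in the transporter values of fed total RNA was not tested. Without fed total array 1, which had the most of it, 0 of the 36 genes passed for fasting in total RNA by limma. The full fit also gave 0, so this count cannot show whether the signal matters. Without that array, 13 of the 36 passed for polysome against total RNA in fed dams, in place of 20. Fits that each left out 1 array gave 13 to 19, so the pancreatic signal and the smaller number of arrays cannot be told apart here.

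ATF4 binds a composite element together with C/EBP proteins, and the core of that element, TGATGNAA, was searched on both strands in 300 bases around the transcription start, from 250 before to 50 after it, in the RefSeq annotation of build GRCr8. Windows were found for 43 of the 55 genes, and some genes had several, giving 47 windows. The core stood in 3 of them, or 6.38%, those of Slc1a4, Slc38a1 and Slc7a1, against 1332 of all 33469 windows, or 3.98%. These 3 windows are shown, 5′ to 3′ on the strand of the gene with the match in capitals, because they carry the motif of a factor whose targets are described with the fasting values:
Slc1a4, minus strand, chr14:98761513-98761812: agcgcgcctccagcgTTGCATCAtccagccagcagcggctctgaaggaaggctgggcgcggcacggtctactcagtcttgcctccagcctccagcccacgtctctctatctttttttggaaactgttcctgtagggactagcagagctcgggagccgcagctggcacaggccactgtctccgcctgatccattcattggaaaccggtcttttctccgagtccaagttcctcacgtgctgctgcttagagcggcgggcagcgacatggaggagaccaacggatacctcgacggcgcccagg
Slc38a1, minus strand, chr7:129681352-129681651: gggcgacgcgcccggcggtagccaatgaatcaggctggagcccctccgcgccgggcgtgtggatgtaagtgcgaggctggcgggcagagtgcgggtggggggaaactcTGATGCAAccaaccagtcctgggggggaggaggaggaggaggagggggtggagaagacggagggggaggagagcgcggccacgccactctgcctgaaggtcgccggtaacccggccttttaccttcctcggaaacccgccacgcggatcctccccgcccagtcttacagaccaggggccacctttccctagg
Slc7a1, plus strand, chr12:11664238-11664537: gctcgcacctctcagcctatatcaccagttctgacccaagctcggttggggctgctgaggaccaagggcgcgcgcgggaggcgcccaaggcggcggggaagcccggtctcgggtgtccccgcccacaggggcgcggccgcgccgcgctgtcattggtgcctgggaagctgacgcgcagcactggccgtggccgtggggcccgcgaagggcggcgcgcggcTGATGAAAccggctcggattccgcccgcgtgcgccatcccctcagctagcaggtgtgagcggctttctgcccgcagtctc
The match of Slc1a4 begins 235 bases before the start and reads TTGCATCA, the core on the opposite strand, that of Slc38a1 begins 142 and that of Slc7a1 30 bases before the start. Fasting gave 0.58 ± 0.16 log2 for Slc1a4, -0.12 ± 0.068 for Slc38a1 and 0.02 ± 0.11 for Slc7a1 in total RNA, and none of these passed (limma adjusted p = 0.105, 0.391 and 0.957). The windows of Slc7a5, Slc3a2, Slc7a11 and Slc38a2 do not hold these letters, and sequence outside the windows, introns included, was not searched.

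The change in polysome loading with fasting was tested as the difference between the polysome and the total fasting values. It passed for 0 of the 36 genes and 0% of all tested genes by limma, and 2 of the 36 had an unadjusted p under 0.05, Slc38a7 and Slc36a1. They measured -0.26 ± 0.11 and -0.23 ± 0.1 log2 (limma adjusted p = 0.856 for both), with the polysome value below 0 and the total value above it in both. With each liver as a fixed block the list changed: unadjusted limma p was 0.0173 for Slc6a6, 0.0211 for Slc38a7, 0.0247 for Slc1a4, 0.0263 for Slc7a11 and 0.0381 for Slc38a2, and 0.0672 for Slc36a1, and 0 of the 36 passed after adjustment. The share of all tested genes with an unadjusted p under 0.05 was not taken in either fit, so neither list has a background to be set against. In the fit without the block, Slc6a4 and Slc6a6 followed at -0.23 ± 0.12 and -0.36 ± 0.19 log2. The estimate was negative for 30 of the 36 genes, beside 46.7% of all tested genes, with a median of -0.08 log2 beside 0.01. It was also negative for 101 of the 147 other Slc genes, with a median of -0.08. The median of the 36 was -0.02 without fed polysome array 1. The genes that passed on polysomes against total RNA in fasted dams alone, Slc38a2, Slc6a6, Slc7a5, Slc43a1, Slc1a5, Slc38a7 and Slc6a4, were therefore not shown to differ between diets (limma adjusted p for the difference from 0.856 to 0.909). The 95% interval of this difference reached 0.31 log2 to either side at the median.

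Genes that act on the same amino acids were described from lists chosen for this purpose. Of 30 tested ATF4 amino acid response genes, transporters left out, 1 rose with fasting in total RNA, Trib3, a pseudokinase induced by ATF4 (1.05 ± 0.22 log2, limma adjusted p = 0.0429); it passed in 13 of 23 alternatives and reached an adjusted p of 0.147 without fasted total array 1. On polysomes 0 of the 30 passed in limma, with Trib3 at 0.73 ± 0.22 and the amino acid sensing kinase Eif2ak4 at -0.25 ± 0.082 log2 (limma adjusted p = 0.0908 and 0.109). Their medians were 0.13 log2 on polysomes and 0.15 in total RNA. Of 15 tested amino acid carriers outside the 7 families, 1 rose on polysomes, Slc17a5, the lysosomal sialic acid carrier (0.46 ± 0.1 log2, limma adjusted p = 0.0417, and 0.148 without fasted polysome array 1), and 0 passed in total RNA, where Slc25a15, the mitochondrial ornithine carrier, measured 0.38 ± 0.088 and Slc17a5 0.27 ± 0.1 (limma adjusted p = 0.056 and 0.198). Of 27 tested urea cycle and amino acid breakdown genes, 0 passed in limma in either fraction, and the closest were Asl, the argininosuccinate lyase, at 0.59 ± 0.15 log2 on polysomes and 0.65 ± 0.15 in total RNA, Gpt, an alanine aminotransferase, at 0.36 ± 0.098 on polysomes, and Bckdha, of the branched-chain dehydrogenase, at 0.43 ± 0.1 in total RNA (limma adjusted p from 0.056 to 0.0662). Of 25 tested genes of mTORC1 amino acid sensing, 0 passed for fasting in limma, with Tbc1d7 at 0.35 ± 0.097 and Mtor at -0.26 ± 0.079 log2 on polysomes and Castor2, an arginine sensor family member, at -0.37 ± 0.1 in total RNA (limma adjusted p = 0.0696, 0.0952 and 0.0969).

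The same lists were compared between fractions, where 25.5% of all tested genes were higher and 18.2% lower on polysomes after fasting, and 24.1% were higher and 19.4% lower in fed dams. Of the 25 mTORC1 sensing genes, 9 were higher and 1 lower on polysomes after fasting, and 9 were higher and 0 lower in fed dams in limma, among them Lamtor4, a part of the lysosomal scaffold, at 0.78 ± 0.083 and 0.63 ± 0.083 log2, and Castor2 at 0.92 ± 0.1 and 0.65 ± 0.1. Of the 30 ATF4 response genes, 7 were higher and 2 lower after fasting, and 11 higher and 5 lower in fed dams. Of the 15 carriers outside the families, 0 were higher in limma and 6 lower after fasting, and 1 was higher and 4 were lower in fed dams, with Slc17a5 at -0.84 ± 0.1 and -1.03 ± 0.1 log2. Of the 27 urea cycle and breakdown genes, 2 were higher and 6 lower after fasting, and 3 higher and 9 lower in fed dams; Arg1, which makes urea from arginine, was higher (0.64 ± 0.091 and 0.78 ± 0.091 log2, limma adjusted p = 1.14e-04 and 2.65e-05). Median differences were 0.19 and 0.16 log2 for mTORC1 sensing, 0.07 and 0.17 for ATF4 response, -0.14 and -0.13 for the other carriers and -0.19 and -0.19 for the urea cycle list, in fasted and fed dams in turn.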

How the data were processed

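Livers of fetal rats were profiled on 12 Affymetrix Rat Gene 1.0 ST arrays, 3 for each of 4 groups, which were taken from the sample labels. The authors deposited linear intensity values, and the submitters' processing notes name RMA without a version. As usually run, RMA quantile normalizes across arrays, and then a shift shared by most messages of a fraction is not seen. For arrays, their number limits the precision.

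Of 28826 probes, 15209 had 1 gene symbol, 306 had several and 13311 were not listed in the annotation table; 15178 matched a current gene. The brightest probe stood for each gene, values were taken as log2(intensity + 1), and genes with a mean under the 40th percentile of all probes (6.07) were left out. The 4 groups were fitted with limma 3.58.1 in R 4.3.3, with default eBayes and Benjamini-Hochberg adjustment over 10174 genes. The p-values measure the spread between these arrays. The fit was tested on simulated data.

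Values per array are given for genes past the threshold in any comparison, the 4 with the smallest p in each, and a core of known liver carriers; genes of other lists are named where they pass, at most 4 a list, or else the 2 with the smallest p. The transporter genes and all lists were chosen with earlier results of these data known. Alternatives were the filter, the normalization, the probe rule, the priors, the arrays fitted, the pseudocount, replicate blocks and leaving out arrays.

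The reported fit is unpaired, and the labels do not state which arrays share a liver. For the replicate blocks alone, replicate numbers were taken to pair total with polysome RNA of a diet. The reason was that same-numbered deviations correlated at 0.154 to 0.362 in all 6 pairs (-0.219 to -0.0227 in the other 12). Deviations within a group cancel out, so positive same-numbered values largely force the others to be negative. Between diets, same-numbered deviations correlated at -0.145 to 0.253, so diets were not paired. Promoter windows come from RefSeq, build GRCr8.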

Additional observations from a re-analysis of the deposited data

How the results depend on the processing

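The counts below are of transporter genes past the limma threshold, out of 36. Polysome against total RNA passed for 19 to 25 genes in fasted and 13 to 19 genes in fed dams when each array was left out in turn, and no gene past the threshold in the reported fit changed sign in the alternatives run; signs of the other genes were not followed. With the replicate number as a block the counts were 25 in fasted and 18 in fed dams; with each liver as a fixed replicate block they were 25 and 22, and with each liver as a random replicate block 25 and 22, and the blocks changed no call other than those of Slc1a5, Slc38a2, Slc6a6, Slc6a20a and Slc36a1 in fed dams. Fasting in total RNA passed for 0 genes, and for 1, Slc7a5, with trend and robust priors. Fasting on polysomes passed for 0 genes, for 1, Slc38a3, with trend and robust priors, for 2 without fed polysome array 1 and fasted polysome array 2 together, and for 0 to 2 when each array was left out. The difference between fractions passed for 0 genes in each alternative, each replicate block included. The cause of these changes was not tested. A fit of the compared arrays alone was not run for the difference, which uses all 4 groups, nor was the liver as a fixed block for fasting, which it absorbs. Over all tested genes, fasting called 105 in total RNA (17 to 199 over alternatives) and 205 on polysomes (11 to 1263, the highest without fed polysome array 1 and fasted polysome array 2). Single probes near the filter, such as that of Slc1a3, limit what dim genes can show.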
